A study of Mus musculus with 12 samples.

Results

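The 81 genes described here are nuclear genes of the mitochondrial oxidative phosphorylation system, all but 1 of them named for its subunits. They were taken from a table of regularized log2 (rlog) expression values with 55413 rows. A row was kept where its symbol began with Ndufa, Ndufb, Ndufc, Ndufs or Ndufv and a number, was Sdha, Sdhb, Sdhc or Sdhd, or began with Uqcr, Cox4 to Cox8 or Atp5, and where its mean over the 12 libraries was at least 3. The names alone matched 97 rows, and 16 of these fell under that mean. The lowest members kept were Cox6b2 (mean 5.12), Cox4i2 (5.74) and Cox7a1 (6.05), and the highest rows left out were Cox6c2 (2.89), annotated as a processed pseudogene, and Cox6a2 (2.45). Cox8b, the muscle partner of Cox8a, had a mean of 0.28. Complex I had 36 members, complex II 4, complex III 8, complex IV 16 and complex V 16. Ndufa4 and its paralog Ndufa4l2 were placed with complex IV, where NDUFA4 is known to reside, and Atp5s, which encodes coupling factor B and no subunit, was kept apart. Ndufb1-ps is annotated as a long noncoding RNA and the other 80 members as protein coding. The naming rule does not take in Ndufab1 or Cyc1, and none of the mitochondrially encoded subunits is in the table used here.

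Oxidative phosphorylation moves electrons from NADH (complex I) or succinate (complex II) through coenzyme Q to complex III and by cytochrome c to complex IV, which reduces oxygen. Complexes I, III and IV pump protons across the inner mitochondrial membrane, and complex V, the ATP synthase, uses the return of those protons to make ATP. Most subunits come from nuclear genes expressed in nearly every cell. Complex IV also has isoforms whose expression is restricted to muscle, lung, testis or oxygen-poor tissue and that replace a ubiquitous partner.

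The libraries came from cultured synovial fibroblasts of BALB/c mice, an inbred strain, whose paws had been injected with monosodium urate (MSU) crystals, the crystals of gout. There were 4 groups of 3 libraries. In vitro libraries came from primed paws, and their cells were kept for 24 h with I-BET151 at 1 µM. The drug inhibits the BET bromodomain proteins, which bind acetylated histones. The labels do not say whether the mice behind these cells were given vehicle. In vivo libraries came from primed paws of mice that received daily intraperitoneal I-BET151 (20 mg/kg), starting 1 day ahead of the first injection of crystals. Primed vehicle libraries came from primed paws of mice injected without the drug, and non-primed libraries from the opposite paws of vehicle mice. Primed paws were left paws with crystals on day 0 and day 9, while non-primed paws were right paws with crystals on day 9 alone, so side and priming cannot be told apart. All RNA was taken on day 18 from cells after 5 passages, pooled over 2 to 3 paws. The labels do not tell whether replicates came from separate animals, so p-values measure the spread between these pooled cultures. The rlog values keep no read counts, and the depth of each library is unknown.

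The libraries did not all carry the transcripts of the labelled cell type to the same degree. Over 15 melanocyte lineage markers the mean rlog value was 12.76 to 14.21 in 5 libraries (in vivo libraries 2 and 3 and the 3 non-primed libraries) and 6.27 to 7.29 in the other 7. These 5 are called melanocyte-marker-rich below. Over 10 fibroblast markers the same 5 libraries had a mean of 7.54 to 11.57, against 14.41 to 15.39 in the 7 others, and the means of 10 macrophage markers (3.02 to 5.55, against 6.67 to 8.72), 10 skeletal muscle markers (2.26 to 3.45, against 4.05 to 6.03) and 5 endothelial markers (3.00 to 4.29, against 5.29 to 6.15) were also lower there. Some markers went the other way. The melanocyte marker Ednrb was lower in the 5 libraries (3.28 to 5.31, against 5.80 to 9.35). The fibroblast marker Fbln1 was 13.41 and 13.79 in non-primed libraries 1 and 2, above the 11.75 to 12.67 of the 7 others, and the muscle markers Des and Ckm and the endothelial marker Vwf were likewise higher in those 2 libraries than in all 7. The macrophage marker Cd163 was near 0 in every library, and the muscle markers Myod1 and Myh2 were near 0 in all 5. Across tested genes, in vivo library 1 correlated at 0.986 to 0.9918 with the in vitro libraries and at 0.8913 and 0.897 with in vivo libraries 2 and 3, while non-primed library 3 correlated at 0.9831 and 0.98 with in vivo libraries 2 and 3 and at 0.9561 and 0.9482 with non-primed libraries 1 and 2. In such bulk cultures, fewer cells of a type and less RNA per cell cannot be told apart. The part of this marker difference in the results below was not tested. Each in vivo call of a member named below is also given with in vivo library 1 as the only treated library.

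The members differed less between groups than most genes did. Between primed vehicle and non-primed libraries, for example, the median size of the difference was 0.32 log2 units for members and 0.71 for all tested genes. The mean of the 76 members other than Atp5s and 4 restricted complex IV isoforms was 12.41, 12.56 and 12.55 in the in vitro libraries, 12.47, 12.72 and 12.66 in the in vivo libraries, 12.47, 12.56 and 12.55 in the primed vehicle libraries and 12.87, 12.84 and 12.68 in the non-primed libraries. The non-primed libraries and in vivo library 2 were the 4 highest, and in vitro library 1 was the lowest. The 5 melanocyte-marker-rich libraries lay above all 7 others in 29 of 81 members (35.8%; 19.6% of the 16459 tested genes) and below them in 6 (7.41%; 24.3% of tested genes). Those 6 were Cox4i2, Cox6b2, Cox7a1, Ndufa4l2, Ndufa7 and Ndufa8. In 11 members (13.6%; 9.7% of tested genes) the 3 primed vehicle values lay below all 9 others. These were Atp5a1, Atp5b, Atp5f1, Atp5s, Cox5a, Ndufa12, Ndufb10, Ndufb11, Ndufc1, Ndufv2 and Sdha, of which 4 (Atp5f1, Ndufb11, Ndufc1 and Ndufv2) are also among the 29 that were highest in the melanocyte-marker-rich libraries. Ndufa13 and Ndufa2 had their 3 primed vehicle values above all 9 others (2.47%; 13.3% of tested genes). Both splits were read off the values and carry no test, and the map of members by library shows them.

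**Figure D1:**
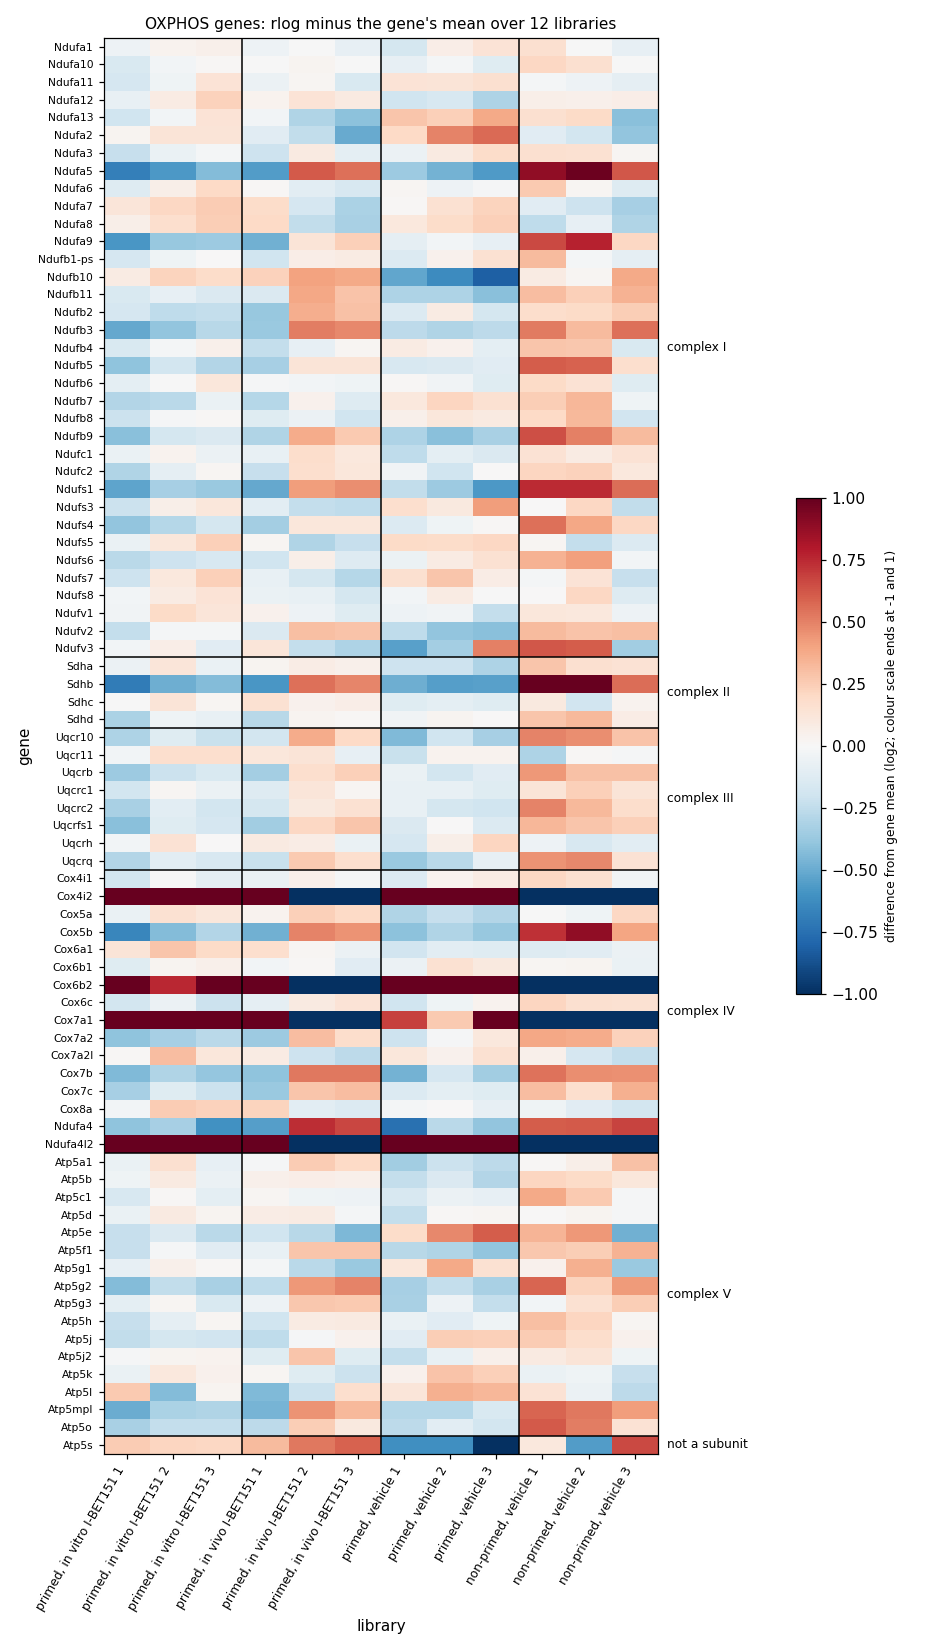
Each row is 1 of 80 members, ordered by complex, and each column 1 library; colour is the rlog value minus the gene's mean over 12 libraries (log2), with the scale ending at -1 and 1. In many rows in vivo library 1 has the colour of the in vitro and primed vehicle libraries while in vivo libraries 2 and 3 have that of the non-primed ones, and Cox4i2, Cox6b2, Cox7a1 and Ndufa4l2 show the opposite colours.

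The upstream sequences of 5 members are shown because their genes carry the patterns described below. They are Ndufa5 and Sdha (lower in primed vehicle libraries), Ndufb10 (higher with I-BET151 by either route), Atp5e (lower with I-BET151) and Cox7a1, a restricted isoform. Each runs 5′ to 3′ over the 250 bases before the RefSeq start of the gene (GRCm38.p6), and capitals mark the motif found in it.
Ndufa5: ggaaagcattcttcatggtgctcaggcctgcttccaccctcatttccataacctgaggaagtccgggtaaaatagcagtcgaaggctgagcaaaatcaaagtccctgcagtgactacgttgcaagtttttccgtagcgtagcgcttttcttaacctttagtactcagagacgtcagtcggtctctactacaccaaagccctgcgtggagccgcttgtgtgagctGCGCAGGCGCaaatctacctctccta
Ndufb10: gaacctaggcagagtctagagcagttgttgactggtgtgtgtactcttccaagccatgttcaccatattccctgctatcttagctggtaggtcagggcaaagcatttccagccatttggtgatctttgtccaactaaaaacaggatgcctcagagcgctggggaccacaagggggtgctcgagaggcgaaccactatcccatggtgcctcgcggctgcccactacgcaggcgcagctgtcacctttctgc
Sdha: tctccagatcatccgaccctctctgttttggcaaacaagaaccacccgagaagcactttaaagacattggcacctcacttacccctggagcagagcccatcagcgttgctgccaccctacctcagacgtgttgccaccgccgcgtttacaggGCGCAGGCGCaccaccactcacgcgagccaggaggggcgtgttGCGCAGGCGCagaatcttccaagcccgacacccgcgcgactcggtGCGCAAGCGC
Cox7a1: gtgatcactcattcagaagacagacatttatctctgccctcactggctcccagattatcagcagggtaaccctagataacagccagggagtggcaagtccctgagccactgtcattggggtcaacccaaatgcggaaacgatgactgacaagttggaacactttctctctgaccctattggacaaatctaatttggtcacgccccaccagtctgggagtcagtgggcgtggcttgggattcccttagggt
Atp5e: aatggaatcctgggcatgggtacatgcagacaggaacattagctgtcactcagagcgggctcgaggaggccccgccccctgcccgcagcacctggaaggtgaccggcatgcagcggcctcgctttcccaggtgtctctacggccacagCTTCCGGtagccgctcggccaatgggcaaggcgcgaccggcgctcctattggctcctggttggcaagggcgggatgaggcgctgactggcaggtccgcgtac

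The Ndufa5 stretch is chr6:24527691-24527940 (minus strand), with a match to the NRF1 motif (GCGCA and GCGC joined by any base) beginning at position -26, counted from the start site. NRF1 is a transcription factor of many nuclear genes for mitochondrial proteins. Sdha (chr13:74350241-74350490, minus strand) held 3 such matches, beginning at -98, -55 and -10. Atp5e (chr2:174464102-174464351, minus strand) held the ETS motif CCGGAAG, which GABP binds, on the opposite strand at -102. In Ndufb10 (chr17:24724424-24724673, minus strand) and Cox7a1 (chr7:30183921-30184170, plus strand) none of the 6 motifs searched lay in this window. The motifs were looked for on both strands from 250 bases before to 50 after the start. This was done in the 67 members that matched the RefSeq promoter table by Ensembl identifier or, failing that, by symbol. The same window was read for all 27025 genes of that table. The NRF1 motif was in 17 of 67 members (25.4%; 5.19% of all genes), the ETS motif in 16 (23.9%; 9.93%) and the YY1 motif AANATGGCG in 10 (14.9%; 2.76%). The cyclic AMP element TGACGTCA was in 4 (5.97%; 2.03%), the E-box CACGTG in 6 (8.96%; 8.09%) and TCAAGGTCA, a site of estrogen-related receptors, in 2 (2.99%; 0.466%). Of the 23 matched members that were lower in primed vehicle libraries by the test below, 5 held the NRF1 motif, 5 the YY1 motif and 1 the ETS motif. Of the 39 matched members that were not called there, 10, 4 and 14 held them. A match is a description of letters and not of binding.

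Priming was compared first, primed vehicle against non-primed libraries. Members of every complex were lower in the primed vehicle libraries, led by Sdhb, Ndufa5, Ndufa4, Ndufs1 and Cox5b, each lower by more than 1 log2 unit, whereas the restricted complex IV isoforms Cox4i2, Ndufa4l2, Cox6b2 and Cox7a1 were higher by 2.93 to 6.63. The non-primed means of Cox4i2 and Cox6b2 were under 3, so the filter kept them only through higher values in other groups. Their rises are therefore not independent of that filter. Of the 81 members, 38 were called (46.9%), 8 of them higher and 30 lower, at an adjusted p under 0.05 in limma, a linear model over all 12 libraries with Benjamini-Hochberg adjustment over the 16459 tested genes. Among the 76 members other than Atp5s and the 4 restricted isoforms, 4 were called higher and 29 lower. Of all tested genes, 51.8% were called, 28.9% higher and 22.9% lower, so the share of members called was near the background, while 37.0% of members were lower and 9.88% higher. The median difference of the members was -0.23, against 0.05 for all tested genes. The groups did not overlap in 11 members in which primed vehicle was higher and 41 in which it was lower, and 61.7% of all tested genes did not overlap (33.7% higher, 28.0% lower). Melanocyte marker means were 6.81 to 7.29 in primed vehicle and 12.76 to 14.21 in non-primed libraries, so priming and that difference cannot be told apart. With libraries centred on their median, which moved the median of all genes to -0.08, the split was 5 higher and 42 lower. In that fit 8643 of the 16459 tested genes were called (main model 8528). Without primed vehicle library 3, 25 members were called, 4 higher and 21 lower, and 6706 of all tested genes. Of the 38 calls, 24 held under every alternative run. The other 14 were lost on leaving out at least 1 library, and these were Ndufa7, Ndufa8, Ndufa9, Ndufa12, Ndufc1, Ndufs4, Uqcrb, Cox5a, Cox7a1, Atp5a1, Atp5b, Atp5c1, Atp5k and Atp5s. Of them Ndufa12, Ndufc1, Atp5c1, Atp5k and Atp5s were also not called in a model of only the 6 libraries compared.

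In complex I, the NADH dehydrogenase, 3 of 36 members rose and 12 fell, with a median difference of -0.15. Ndufs1 (chromosome 1, 63143596 to 63176833, minus strand, GRCm38) encodes the largest core subunit, which carries iron-sulfur clusters. Its rlog values were 12.84, 13.03 and 12.99 in the in vitro libraries, 12.85, 13.78 and 13.83 in the in vivo libraries, 13.12, 13.00 and 12.79 in the primed vehicle libraries and 14.11, 14.11 and 13.92 in the non-primed libraries. The 3 primed vehicle values lay below the 3 non-primed ones, with in vitro library values and in vivo library 1 beside the primed vehicle values. Ndufs1 fell by 1.08 ± 0.23 log2 units (SE; limma adjusted p = 0.00399). Ndufs1 overlaps Eef1b2 and Ino80dos on the opposite strand, and the strand setting of the counting is not given in the sources used here. Ndufa5, an accessory subunit of the matrix arm (chromosome 6, 24518666 to 24528013, minus strand), had values of 10.99, 11.10 and 11.24 in the in vitro libraries, 11.12, 12.29 and 12.23 in the in vivo libraries, 11.31, 11.20 and 11.11 in the primed vehicle libraries and 12.56, 12.66 and 12.30 in the non-primed libraries. Its primed vehicle and non-primed values did not overlap, and the difference was -1.30 ± 0.26 (SE; limma adjusted p = 0.00356). Ndufb10 (chromosome 17, 24722060 to 24724478, minus strand), an accessory subunit of the membrane arm, had 12.72, 12.86 and 12.82 in the in vitro libraries, 12.87, 13.04 and 13.02 in the in vivo libraries, 12.12, 12.01 and 11.82 in the primed vehicle libraries and 12.72, 12.66 and 13.02 in the non-primed libraries. Here the primed vehicle libraries stood alone at the low end, below all 9 others, and the difference from non-primed was -0.81 ± 0.12 (SE; limma adjusted p = 0.00142).

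Ndufa9, an accessory subunit of the matrix arm, had 11.81, 12.01 and 12.03 in the in vitro libraries, 11.91, 12.52 and 12.63 in the in vivo libraries, 12.30, 12.36 and 12.31 in the primed vehicle libraries and 13.05, 13.16 and 12.60 in the non-primed libraries. The primed vehicle values lay below the non-primed ones, and Ndufa9 fell by 0.62 ± 0.20 (SE; limma adjusted p = 0.0239). The core subunit Ndufv2 fell by 0.66 ± 0.13 (adjusted p = 0.00316), and the accessory subunits Ndufb9, Ndufb3, Ndufb11, Ndufb5, Ndufs4, Ndufa12 and Ndufc1 fell by 0.84, 0.74, 0.64, 0.60, 0.43, 0.29 and 0.29. Ndufv1, the core subunit that binds NADH, had 12.55, 12.56 and 12.36 in the primed vehicle libraries, against 12.71, 12.70 and 12.55 in the non-primed libraries, a difference of -0.16 ± 0.10 (SE; limma adjusted p = 0.212). Ndufb8, an accessory subunit often used as a blotting marker of the complex, had 12.08, 12.14 and 12.12 in the primed vehicle libraries, against 12.23, 12.35 and 11.84 in the non-primed libraries, a difference of -0.03 ± 0.13 (SE; limma adjusted p = 0.885). Both pairs of groups overlapped. The 3 members that rose were the accessory subunits Ndufa2 (0.65 ± 0.14, adjusted p = 0.00414), Ndufa8 (0.39 ± 0.14, 0.0379) and Ndufa7 (0.35 ± 0.13, 0.0498). Ndufa2 shares its locus with Tmco6 on the opposite strand.

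All 4 members of complex II, succinate dehydrogenase, had a negative difference. The catalytic subunits Sdha and Sdhb fell, and the differences of the membrane anchors Sdhc and Sdhd did not pass the test. The subunits were not tested against each other. Sdhb (chromosome 4, 140961203 to 140979193, plus strand), the iron-sulfur subunit, had 12.54, 12.75 and 12.81 in the in vitro libraries, 12.66, 13.79 and 13.73 in the in vivo libraries, 12.75, 12.69 and 12.70 in the primed vehicle libraries and 14.38, 14.28 and 13.80 in the non-primed libraries. The primed vehicle values spanned less than 0.1 and lay below every non-primed value. The difference of -1.44 ± 0.27 (SE; limma adjusted p = 0.00268) was the largest fall among the members. Sdha, the flavin subunit that oxidizes succinate, had 14.34, 14.52 and 14.33 in the in vitro libraries, 14.43, 14.47 and 14.45 in the in vivo libraries, 14.19, 14.19 and 14.09 in the primed vehicle libraries and 14.68, 14.56 and 14.54 in the non-primed libraries. The primed vehicle libraries were the lowest 3 of the 12, and Sdha fell by 0.43 ± 0.10 (SE; limma adjusted p = 0.00472). Sdhc had 13.06, 13.09 and 13.06 in the primed vehicle libraries, against 13.28, 12.99 and 13.22 in the non-primed libraries, with a difference of -0.09 ± 0.10 (SE; limma adjusted p = 0.442). Sdhd had 13.05, 13.11 and 13.09 in the primed vehicle libraries, against 13.36, 13.41 and 13.16 in the non-primed libraries, with no overlap and a difference of -0.23 ± 0.12 (SE; limma adjusted p = 0.138).

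In complex III, the cytochrome bc1 complex, 4 of 8 members fell and none rose, with a median difference of -0.42. Uqcr10, a small subunit, had 12.35, 12.54 and 12.44 in the in vitro libraries, 12.48, 13.03 and 12.86 in the in vivo libraries, 12.22, 12.46 and 12.33 in the primed vehicle libraries and 13.16, 13.13 and 12.95 in the non-primed libraries. The primed vehicle values lay below the non-primed ones, and Uqcr10 fell by 0.74 ± 0.14 (SE; limma adjusted p = 0.00295). The small subunits Uqcrq and Uqcrb fell by 0.60 and 0.46. Of the core proteins, Uqcrc2 had 13.17, 13.07 and 13.05 in the primed vehicle libraries, against 13.74, 13.57 and 13.42 in the non-primed libraries, and fell by 0.48 ± 0.12 (adjusted p = 0.00931). Uqcrc1 had 13.47, 13.47 and 13.42 in the primed vehicle libraries, against 13.67, 13.78 and 13.67 in the non-primed libraries, a difference of -0.25 ± 0.10 (SE; limma adjusted p = 0.0521). Those 2 core proteins do not carry electrons. Uqcrfs1, the Rieske iron-sulfur protein, does, and had 12.73, 12.88 and 12.74 in the primed vehicle libraries, against 13.21, 13.15 and 13.11 in the non-primed libraries, a difference of -0.37 ± 0.16 (SE; limma adjusted p = 0.0688). Uqcr11 and Uqcrh, the remaining small subunits, differed by 0.05 and 0.14 and were not called.

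Complex IV, cytochrome c oxidase, held both directions. All 4 restricted isoforms that passed the filter rose. Of the 12 ubiquitous members 4 fell and none rose, with a median of -0.29 over those 12. The filter on the mean over 12 libraries kept Cox4i2 and Cox6b2 through their other groups, as their non-primed means were under 3. Cox6a2 and Cox8b fell under it and were not tested. Primed vehicle and non-primed values overlapped in Cox6a2, while in Cox8b the primed vehicle values were higher. The 4 rises therefore do not stand for all restricted isoforms. Cox4i2 (chromosome 2, 152754173 to 152765037, plus strand), the isoform of subunit 4 known from lung and from cells short of oxygen, had 8.04, 7.19 and 8.19 in the in vitro libraries, 7.61, 2.90 and 2.77 in the in vivo libraries, 8.15, 8.07 and 9.85 in the primed vehicle libraries and 1.40, 3.04 and 1.73 in the non-primed libraries. Its values fell into 2 levels, with in vivo library 1 on the upper one beside the in vitro and primed vehicle libraries. The difference between primed vehicle and non-primed was 6.63 ± 1.14 (SE; limma adjusted p = 0.00207). Its ubiquitous partner Cox4i1 had 14.32, 14.50 and 14.42 in the in vitro libraries, 14.44, 14.56 and 14.49 in the in vivo libraries, 14.37, 14.54 and 14.59 in the primed vehicle libraries and 14.71, 14.67 and 14.47 in the non-primed libraries, with overlapping groups and a difference of -0.11 ± 0.11 (SE; limma adjusted p = 0.415). Ndufa4l2, a paralog of Ndufa4 that is induced in low oxygen, had 11.85, 11.89 and 11.83 in the in vitro libraries, 12.22, 7.44 and 7.56 in the in vivo libraries, 11.98, 12.79 and 13.62 in the primed vehicle libraries and 7.33, 8.23 and 4.39 in the non-primed libraries. The primed vehicle libraries were higher than every non-primed library, by 6.14 ± 1.26 (SE; limma adjusted p = 0.00365), though Ndufa4l2 overlaps Shmt2 on the opposite strand. Ndufa4 itself went the other way, with 13.02, 13.09 and 12.82 in the in vitro libraries, 12.87, 14.16 and 14.09 in the in vivo libraries, 12.68, 13.15 and 13.03 in the primed vehicle libraries and 14.03, 14.04 and 14.10 in the non-primed libraries. It fell by 1.11 ± 0.29 (SE; limma adjusted p = 0.0103), and the groups did not overlap.

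Cox6b2, known as the testis isoform of subunit 6b, had 6.75, 5.87 and 7.67 in the in vitro libraries, 6.72, 3.30 and 2.82 in the in vivo libraries, 8.11, 6.15 and 6.55 in the primed vehicle libraries and 2.66, 3.30 and 1.54 in the non-primed libraries. All primed vehicle values exceeded all non-primed values, by 4.44 ± 0.99 (SE; limma adjusted p = 0.00502). The ubiquitous Cox6b1 had 13.62, 13.83 and 13.78 in the primed vehicle libraries, against 13.70, 13.71 and 13.61 in the non-primed libraries, a difference of 0.07 ± 0.10 (SE; limma adjusted p = 0.592), and its groups overlapped. Cox7a1 (chromosome 7, 30184144 to 30186078, plus strand), the heart and skeletal muscle isoform of subunit 7a, had 8.12, 7.84 and 7.63 in the in vitro libraries, 8.41, 3.95 and 4.51 in the in vivo libraries, 6.74, 6.32 and 7.44 in the primed vehicle libraries and 4.08, 4.05 and 3.57 in the non-primed libraries. Primed vehicle libraries were higher by 2.93 ± 0.93 (SE; limma adjusted p = 0.0236). Skeletal muscle marker means were 4.65 to 6.03 in primed vehicle and 2.26 to 3.45 in non-primed libraries. Fibroblast means (14.81 to 15.39, against 7.54 to 11.57) and macrophage means (8.05 to 8.72, against 3.02 to 5.55) were higher there as well. So were endothelial means (5.76 to 6.15, against 3.00 to 4.29). The muscle markers Des and Ckm were lower in the primed vehicle libraries than in non-primed libraries 1 and 2. The cells behind the Cox7a1 values were not tested. After quantile normalization the difference of Cox7a1 was 1.84 ± 0.84 (SE; limma adjusted p = 0.0804), and without non-primed library 3, primed vehicle library 1 or primed vehicle library 3 the adjusted p was 0.0603, 0.0535 and 0.0775. The ubiquitous Cox7a2 had 13.08, 13.28 and 13.40 in the primed vehicle libraries, against 13.68, 13.66 and 13.52 in the non-primed libraries, a difference of -0.37 ± 0.16 (SE; limma adjusted p = 0.0813). Cox7a2l, which takes part in joining complexes III and IV, had 12.64, 12.57 and 12.68 in the primed vehicle libraries, against 12.58, 12.36 and 12.29 in the non-primed libraries, a difference of 0.22 ± 0.13 (SE; limma adjusted p = 0.176). Neither Cox7a2 nor Cox7a2l passed the test. Among the other ubiquitous subunits, Cox5b fell by 1.03 ± 0.24 (adjusted p = 0.00594) and Cox7b by 0.82 ± 0.22 (adjusted p = 0.0109). Cox5a, which sits on the matrix side, had 13.43, 13.65 and 13.61 in the in vitro libraries, 13.53, 13.73 and 13.69 in the in vivo libraries, 13.19, 13.26 and 13.20 in the primed vehicle libraries and 13.49, 13.45 and 13.70 in the non-primed libraries, and fell by 0.33 ± 0.11 (adjusted p = 0.0239). Cox7c had 12.38, 12.42 and 12.39 in the primed vehicle libraries, against 12.82, 12.68 and 12.87 in the non-primed libraries, with a difference of -0.40 ± 0.17 (SE; limma adjusted p = 0.0671). Cox8a, with 13.31, 13.33 and 13.24 in the primed vehicle libraries, against 13.28, 13.21 and 13.14 in the non-primed libraries, and Cox6a1, with 13.53, 13.62 and 13.60 in the primed vehicle libraries, against 13.59, 13.61 and 13.66 in the non-primed libraries, had overlapping groups and were not called. The plot of isoforms beside their partners shows the 2 levels of the restricted isoforms by library.

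**Figure D2:**
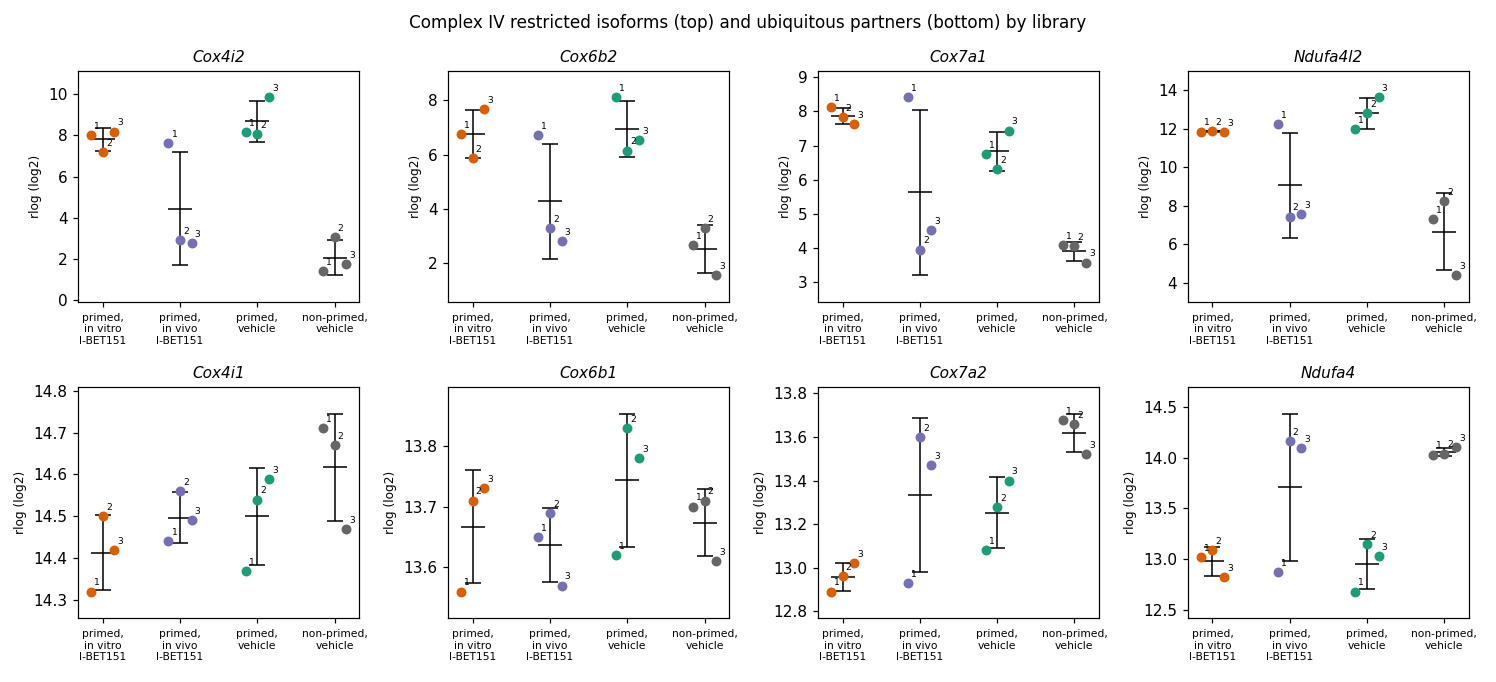
Dots are rlog values (log2) of single libraries, numbered by replicate, of 4 restricted complex IV isoforms (top) and their ubiquitous partners (bottom); bars give mean and SD of 3 libraries, and each panel has its own axis that does not start at 0. In Cox4i2, Cox6b2, Cox7a1 and Ndufa4l2, in vivo library 1 lies with the in vitro and primed vehicle libraries and in vivo libraries 2 and 3 lie lower.

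Complex V, the ATP synthase, had 1 of 16 members higher and 7 lower, with a median of -0.28. Of its catalytic F1 head, Atp5b, the subunit whose sites make ATP, had 16.43, 16.57 and 16.42 in the in vitro libraries, 16.53, 16.54 and 16.53 in the in vivo libraries, 16.24, 16.33 and 16.18 in the primed vehicle libraries and 16.69, 16.67 and 16.59 in the non-primed libraries. The primed vehicle values were the lowest 3 of 12, and Atp5b fell by 0.40 ± 0.12 (SE; limma adjusted p = 0.0186). Its partner in the head, Atp5a1, had 15.69, 15.92 and 15.68 in the in vitro libraries, 15.75, 16.01 and 15.96 in the in vivo libraries, 15.41, 15.54 and 15.50 in the primed vehicle libraries and 15.77, 15.82 and 16.05 in the non-primed libraries, and fell by 0.40 ± 0.13 (adjusted p = 0.0299), also with the primed vehicle libraries lowest. Atp5c1, the central stalk, fell by 0.31. Atp5mpl, a small protein of the membrane part, had 12.21, 12.39 and 12.40 in the in vitro libraries, 12.24, 13.15 and 13.03 in the in vivo libraries, 12.42, 12.42 and 12.55 in the primed vehicle libraries and 13.29, 13.23 and 13.12 in the non-primed libraries, and fell by 0.75 ± 0.20 (adjusted p = 0.0112). Of the peripheral stalk, Atp5f1 fell by 0.61 ± 0.12 (adjusted p = 0.00292) and Atp5o by 0.61 ± 0.15 (adjusted p = 0.00825). The c subunit of the rotor ring has an identical mature form from 3 genes. Atp5g2 had 10.52, 10.62 and 10.53 in the primed vehicle libraries, against 11.44, 11.08 and 11.28 in the non-primed libraries, and fell by 0.71 ± 0.19 (adjusted p = 0.0116). Atp5g3 had 13.76, 14.03 and 13.84 in the primed vehicle libraries, against 14.05, 14.23 and 14.33 in the non-primed libraries, and differed by -0.32 ± 0.13 (SE; limma adjusted p = 0.0533). Atp5g1 had 11.67, 11.94 and 11.71 in the primed vehicle libraries, against 11.60, 11.91 and 11.19 in the non-primed libraries, and differed by 0.21 ± 0.18 (SE; limma adjusted p = 0.342), the only positive difference of the 3 genes. Atp5k, a small membrane subunit, rose by 0.30 ± 0.11 (adjusted p = 0.0422). Atp5s, the coupling factor, had 10.28, 10.24 and 10.23 in the in vitro libraries, 10.34, 10.55 and 10.61 in the in vivo libraries, 9.41, 9.41 and 8.93 in the primed vehicle libraries and 10.13, 9.46 and 10.68 in the non-primed libraries, and fell by 0.84 ± 0.27 (SE; limma adjusted p = 0.0248). Its adjusted p was 0.0848 in the model of only the 6 libraries compared, 0.0604 without non-primed library 1 and 0.0914 without primed vehicle library 3. Without non-primed library 3 the difference was -0.54 ± 0.23 (SE; limma adjusted p = 0.0706).

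**Figure D3:**
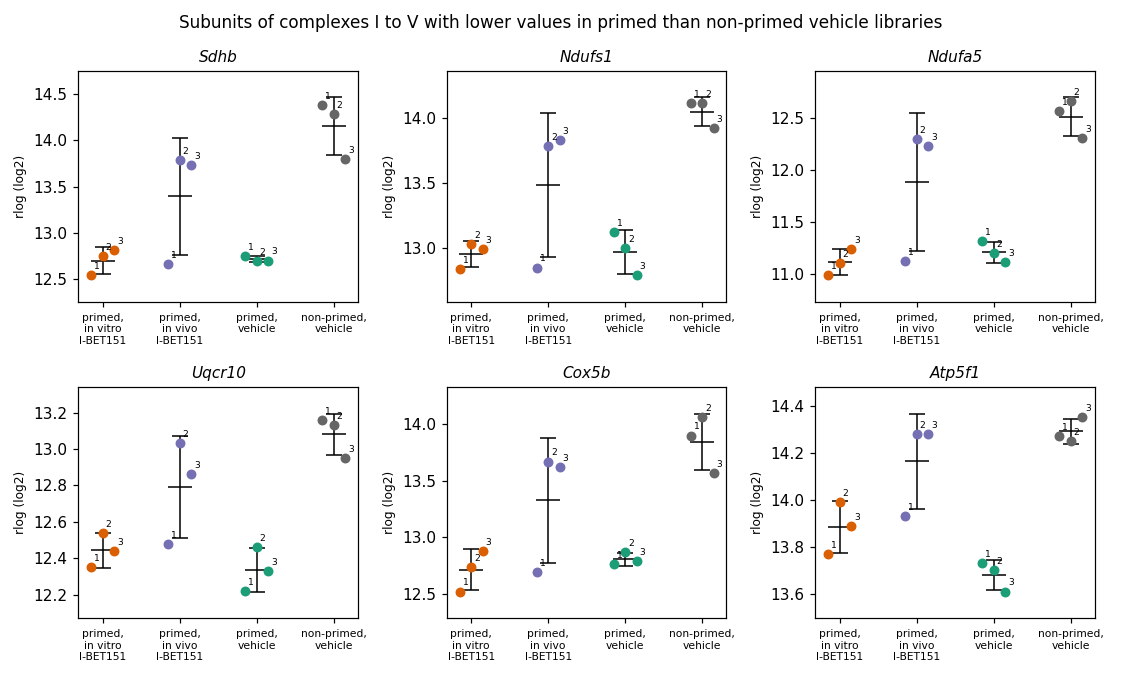
Dots are rlog values (log2) of single libraries, numbered by replicate, of 6 subunits of complexes I to V that fell between primed vehicle and non-primed libraries; bars give mean and SD of 3 libraries, and each panel has its own axis that does not start at 0. In Sdhb, Ndufs1, Ndufa5, Uqcr10 and Cox5b, in vivo library 1 lies near the primed vehicle values and in vivo libraries 2 and 3 near the non-primed ones, while in Atp5f1 in vivo library 1 lies between them.

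Treatment of the mice was compared next, in vivo against primed vehicle libraries. Among called members, Atp5s, Ndufb10, Ndufb11, Ndufv2 and Atp5f1 had the largest rises, the restricted isoforms Cox4i2 and Ndufa4l2 fell, and Atp5e, Ndufa2, Ndufa13 and Ndufs3 fell by less than 1 log2 unit. In limma 17 of 81 members were called (21.0%), 11 higher and 6 lower, against 39.7% of all tested genes (17.9% higher, 21.8% lower). In the model of only the 6 libraries compared, 6 members were called (7.41%), 3 higher (Ndufb10, Cox5a and Atp5s) and 3 lower (Ndufa2, Ndufa13 and Atp5e), against 24.0% of all tested genes (10.2% higher, 13.8% lower). The groups did not overlap in 18 members that were higher and 14 that were lower, against 49.1% of all tested genes (22.7% higher, 26.4% lower). The median difference was 0.08 for members and -0.05 for all tested genes, and it was -0.08 for members with in vivo library 1 alone. These calls depended on which in vivo libraries were used. With in vivo library 1 alone against the 3 primed vehicle libraries, 0 of 81 members were called by limma, where the lone library is assumed to vary like the other groups. At an unadjusted p under 0.05 there were 6, and 1.18% of all tested genes were called. Without in vivo library 1, 45 members were called (30 higher, 15 lower), and so were 9962 of the 16459 tested genes (main model 6531). Without library 2 or library 3, 3 members each were called, against 2483 and 2435 of all tested genes. Without primed vehicle library 1, 2 or 3 the counts of members were 9, 7 and 5, against 4340, 3821 and 3378 of all tested genes. Ndufb10, Ndufa2 and Atp5s were called in each of the 6 models that left out 1 library. In vivo libraries 2 and 3 had melanocyte marker means of 12.77 and 12.76, against 6.27 in in vivo library 1. With libraries centred on their median, which moved the median of all genes to 0.13, 27 members rose and 4 fell, and after quantile normalization, which moved it to 0.19, 19 rose and 5 fell. Of all tested genes, 6993 and 7562 were called in these fits.

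In complex I, Ndufb10 had the largest rise, 0.99 ± 0.12 (SE; limma adjusted p = 0.00151). Its 3 in vivo values, 12.87 to 13.04, all lay above the primed vehicle values, 11.82 to 12.12, and with in vivo library 1 alone the difference was 0.88 ± 0.18 (SE; limma adjusted p = 0.0549). Ndufb11 rose by 0.52 ± 0.13, Ndufv2 by 0.50 ± 0.13 and Ndufa12 by 0.31 ± 0.11. In the 6-library model these 3 were not called (limma adjusted p = 0.0671, 0.0634 and 0.0775), and with in vivo library 1 alone their differences were 0.19 ± 0.11, 0.21 ± 0.13 and 0.26 ± 0.15 (SE), also not called. Ndufa2 had 11.83, 11.70 and 11.44 in the in vivo libraries, against 12.14, 12.44 and 12.51 in the primed vehicle libraries, and fell by 0.71 ± 0.14 (SE; limma adjusted p = 0.00594). Ndufa13, an accessory subunit also known as GRIM-19, had 12.80, 12.53 and 12.42 in the in vivo libraries, against 13.11, 13.07 and 13.21 in the primed vehicle libraries, and fell by 0.55 ± 0.17 (adjusted p = 0.0312). In both genes all in vivo values, library 1 included, lay below all primed vehicle values, and with library 1 alone the differences of Ndufa2 and Ndufa13 were -0.54 ± 0.18 and -0.33 ± 0.24 (SE; limma adjusted p = 0.129 and 0.428). The core subunit Ndufs3 fell by 0.42 ± 0.15, a call lost in the 6-library model (adjusted p = 0.0589) and with library 1 alone (-0.33 ± 0.22, adjusted p = 0.386). Ndufs1 and Ndufa5, for which in vivo libraries 2 and 3 were high and library 1 was not, differed by 0.52 ± 0.23 (adjusted p = 0.0874) and 0.67 ± 0.26 (adjusted p = 0.0659), and were not called.

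In complexes II and III, Sdha rose by 0.29 ± 0.10 (SE; limma adjusted p = 0.0363) and Uqcr10 by 0.45 ± 0.14 (adjusted p = 0.0312). In the 6-library model no member of either complex was called, with an adjusted p of 0.081 for Sdha and 0.0952 for Uqcr10. With in vivo library 1 alone the difference was 0.27 ± 0.13 for Sdha and 0.14 ± 0.15 for Uqcr10 (SE; limma adjusted p = 0.256 and 0.583). Sdhb, with in vivo library 1 below all primed vehicle values and libraries 2 and 3 above them, differed by 0.68 ± 0.27 (SE; limma adjusted p = 0.0659). In complex IV, Cox5a rose by 0.43 ± 0.11 (adjusted p = 0.0131), with every in vivo library above every primed vehicle library and a difference of 0.31 ± 0.14 (SE; limma adjusted p = 0.231) with library 1 alone. Cox4i2 fell by 4.26 ± 1.14 and Ndufa4l2 fell by 3.72 ± 1.26, and neither was called in the 6-library model (adjusted p = 0.0752 and 0.0918). In these isoforms the difference came with in vivo libraries 2 and 3. With library 1 alone, the difference of Cox4i2 was -1.08 ± 0.86 (SE; limma adjusted p = 0.473) and that of Ndufa4l2 was -0.57 ± 1.22 (SE; limma adjusted p = 0.806). In complex V, Atp5f1, Atp5a1 and Atp5g3 rose by 0.49 ± 0.12, 0.42 ± 0.13 and 0.36 ± 0.13. In the 6-library model none of the 3 was called (limma adjusted p = 0.0506, 0.0768 and 0.106), and with library 1 alone their differences were 0.25 ± 0.13, 0.26 ± 0.17 and 0.15 ± 0.16 (SE), also not called. Atp5e, the small epsilon subunit of the central stalk, had 11.93, 12.01 and 11.89 in the in vitro libraries, 11.96, 11.88 and 11.71 in the in vivo libraries, 12.34, 12.64 and 12.76 in the primed vehicle libraries and 12.50, 12.59 and 11.68 in the non-primed libraries. All in vivo values lay below all primed vehicle values, and Atp5e fell by 0.73 ± 0.22 (SE; limma adjusted p = 0.0261). Atp5s rose by 1.25 ± 0.27 (adjusted p = 0.00857), again with no overlap. With library 1 alone the differences of Atp5e and Atp5s were -0.62 ± 0.33 and 1.09 ± 0.41 (SE; limma adjusted p = 0.287 and 0.166).

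Treatment in culture was compared in vitro against primed vehicle, 6 libraries of which none is melanocyte-marker-rich (marker means of 6.35 to 6.62 in vitro and 6.81 to 7.29 in primed vehicle). Ndufb10 rose, and most members differed little. Of 81 members, 75 differed by less than 0.5 log2 units in either direction, and the median size of the difference was 0.13, against 0.35 for all tested genes. In the limma model of all 12 libraries 1 of 81 members was called (1.23%), a rise, against 4.51% of all tested genes (1.76% higher, 2.76% lower). The groups did not overlap in 15 members that were higher and 15 that were lower, against 48.4% of all tested genes (22.7% higher, 25.7% lower). The median difference was -0.04 for members and -0.02 for all tested genes. When the model was fitted to these 6 libraries alone, where the median standard error of a member was 0.10 instead of 0.13, 8 members were called (9.88%), 5 higher and 3 lower, against 30.3% of all tested genes (13.4% higher, 16.9% lower). Leaving out primed vehicle library 2 or in vitro library 2 took that count to 3, and leaving out in vitro library 1 took it to 5. In these fits 3414, 2520 and 2771 of all tested genes were called, against 4983 with all 6 libraries. The balance of directions also changed. Without primed vehicle library 1, 2 members were higher and 7 lower, and without in vitro library 3, 3 were higher and 4 lower. Without primed vehicle library 3, 5 were higher and 2 lower. Those fits called 4237, 4612 and 3731 of all tested genes.

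Ndufb10 rose by 0.81 ± 0.12 (SE; limma adjusted p = 0.012) over all 12 libraries and by 0.81 ± 0.10 (SE; limma adjusted p = 0.00317) over these 6. Its in vitro values, 12.72 to 12.86, all exceeded its primed vehicle values, 11.82 to 12.12. Without primed vehicle library 2 or 3 or in vitro library 1 or 2, the 12-library model gave an adjusted p of 0.0623, 0.0594, 0.0705 and 0.0787. In the 6-library model it was called without any 1 of the 6. The other 7 members were called in the 6-library model alone. Atp5s rose by 1.00 ± 0.16 (SE; limma adjusted p = 0.00571), with in vitro values of 10.23 to 10.28 and no overlap. It was called without any 1 of the 6 libraries, as was Atp5e, which fell by 0.64 ± 0.12 (SE; limma adjusted p = 0.00988). In complex IV, Cox7a1 rose by 1.03 ± 0.32 (SE; limma adjusted p = 0.0481), Cox5a by 0.35 ± 0.09 (SE; limma adjusted p = 0.0234) and Cox6a1 by 0.34 ± 0.08 (SE; limma adjusted p = 0.0207). Cox6a1, the liver-type isoform of subunit 6a, had 13.85, 14.00 and 13.91 in the in vitro libraries, against 13.53, 13.62 and 13.60 in the primed vehicle libraries. In complex I, Ndufa9 fell by 0.37 ± 0.09 (adjusted p = 0.0206) and Ndufb7, an accessory subunit facing the intermembrane space, by 0.37 ± 0.09 (adjusted p = 0.0257). Each of these 5 lost its call on leaving out at least 1 library. In all 8 genes no in vitro value overlapped the primed vehicle values. None of the members of complexes II and III was called. Sdhb, the largest fall with priming, differed by -0.01 ± 0.27 (SE; limma adjusted p = 0.991), with 12.54, 12.75 and 12.81 in the in vitro libraries, against 12.75, 12.69 and 12.70 in the primed vehicle libraries.

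**Figure D4:**
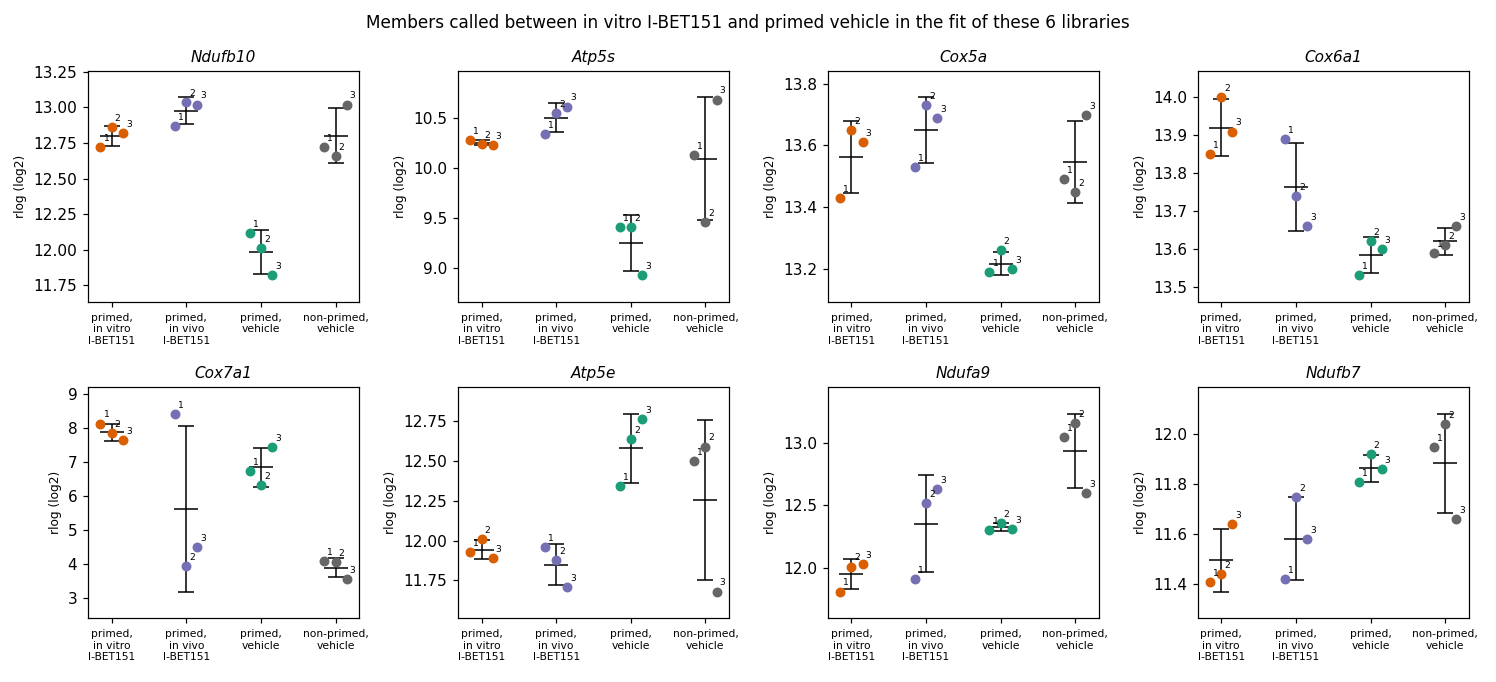
Dots are rlog values (log2) of single libraries, numbered by replicate, of the 8 members called between in vitro and primed vehicle libraries in the model of those 6 libraries; bars give mean and SD of 3 libraries, and each panel has its own axis that does not start at 0. In all 8 genes the in vitro and primed vehicle dots do not overlap, and in Ndufb10, Atp5s and Cox5a the primed vehicle libraries lie below every other library.

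Ndufb10, Atp5s and Cox5a rose, and Atp5e fell, in vivo in the 12-library model and in vitro in the 6-library model. Both comparisons use the same primed vehicle libraries, so the directions are not independent. Side by side in the 12-library model, the differences in vivo and in vitro were 0.99 ± 0.12 and 0.81 ± 0.12 for Ndufb10, 1.25 ± 0.27 and 1.00 ± 0.27 for Atp5s, 0.43 ± 0.11 and 0.35 ± 0.11 for Cox5a and -0.73 ± 0.22 and -0.64 ± 0.22 for Atp5e.

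In vivo libraries were also set against non-primed libraries, which asks how far treated primed cultures lay from non-primed ones. No member and no tested gene was called by limma (0 of 81; 0.0% of 16459), and 11 members and 3366 genes had an unadjusted p under 0.05. The groups did not overlap in 12 members, in all of which the in vivo libraries were lower, against 17.3% of all tested genes (8.71% higher, 8.62% lower). The median difference was -0.14 for members and 0.03 for all tested genes. Without non-primed library 3, which correlated more with in vivo libraries 2 and 3 than with its own group, 9 members were lower, Ndufa9, Atp5e, Ndufb5, Atp5o, Ndufs4, Ndufs6, Ndufb7, Ndufb8 and Atp5c1, by 0.75 to 0.35, and 2812 genes were called. Sdhb differed by -0.76 ± 0.27 (SE; limma adjusted p = 0.222) and Cox4i2 by 2.37 ± 1.14 (SE; limma adjusted p = 0.261). Ndufb10 differed by 0.18 ± 0.12 (SE; limma adjusted p = 0.396), with 12.87, 13.04 and 13.02 in the in vivo libraries, against 12.72, 12.66 and 13.02 in the non-primed libraries. A p that misses the threshold does not show that the groups were alike. The plot of differences by complex sets the 4 comparisons side by side.

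**Figure D5:**
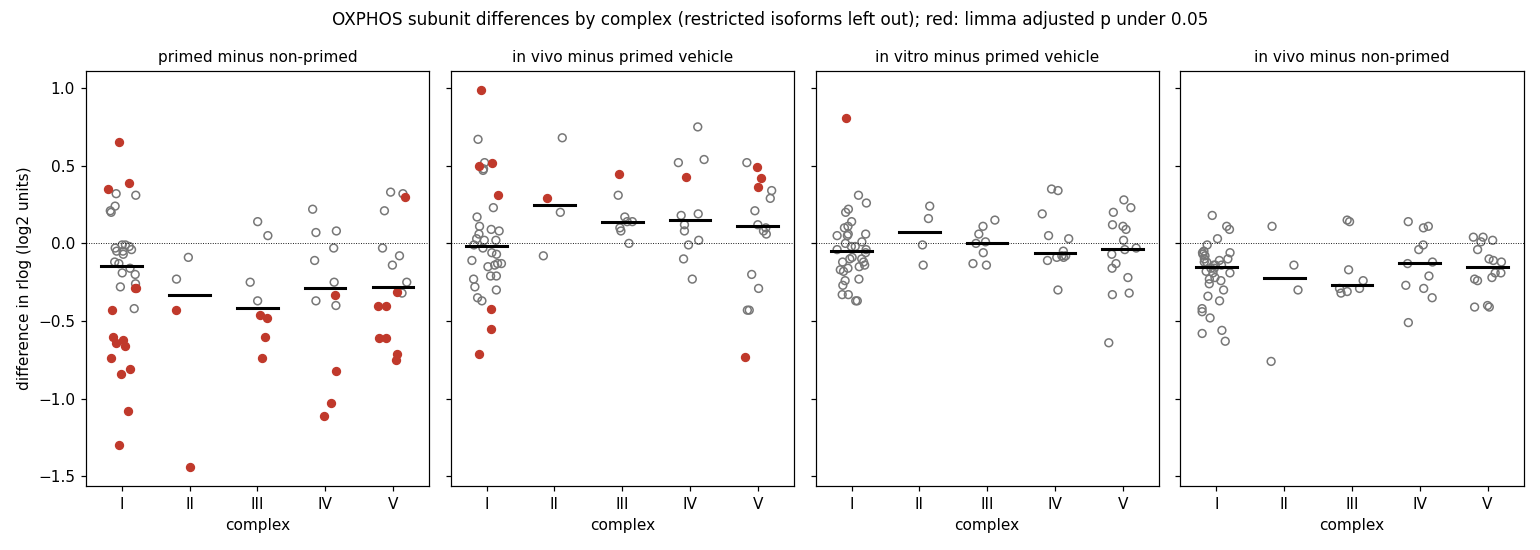
Each dot is 1 subunit, by complex, and the vertical axis is the difference in rlog (log2 units) in each of the 4 comparisons, with the 4 restricted isoforms left out; red dots have a limma adjusted p under 0.05 and black lines are medians of the complex. Called dots lie mostly below 0 in primed minus non-primed, and 1 dot, Ndufb10, is called in the in vitro comparison.

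Other genes of the pathway were counted in lists of assembly factors, carriers and mitochondrial maintenance. Between primed vehicle and non-primed libraries, 1 of 15 assembly factors of complex I rose and 6 fell, with a median difference of -0.38, against 0.05 for all tested genes, of which 28.9% rose and 22.9% fell. For complexes II and III it was 4 and 3 of 10, for complex IV 4 and 5 of 20, and for complex V 0 and 1 of 4. In the model of only the 6 libraries compared, 0 assembly factors of complex I rose and 4 fell. Foxred1, an assembly factor of complex I, had 10.80, 10.91 and 10.66 in the in vitro libraries, 10.78, 11.49 and 11.51 in the in vivo libraries, 10.44, 10.35 and 10.52 in the primed vehicle libraries and 11.53, 11.71 and 11.57 in the non-primed libraries, and fell by 1.17 ± 0.19 (SE; limma adjusted p = 0.00163). Sdhaf3 and Lyrm7, which help insert iron-sulfur clusters into complexes II and III, fell by 1.56 ± 0.26 and 1.43 ± 0.25. Of the copper chaperones of complex IV, Sco1 fell by 0.96 ± 0.19 and Sco2 rose by 0.94 ± 0.27. Of 18 electron carrier and coenzyme Q genes 1 rose and 8 fell (median -0.37), of 19 genes of the tricarboxylic acid cycle and pyruvate dehydrogenase 4 rose and 8 fell (median -0.21), and of 48 mitochondrial ribosomal proteins 5 rose and 14 fell (median -0.17). Coq8a, a kinase-like protein of coenzyme Q synthesis, had 9.58, 9.84 and 9.39 in the in vitro libraries, 9.60, 10.46 and 10.40 in the in vivo libraries, 8.15, 7.96 and 7.68 in the primed vehicle libraries and 11.99, 11.62 and 10.56 in the non-primed libraries, and fell by 3.46 ± 0.36 (adjusted p = 0.000524). Of 14 regulators of mitochondrial biogenesis 0 rose and 6 fell (median -0.25). Of 18 protein import genes 0 rose and 6 fell, of 10 genes of mitochondrial DNA and RNA processing 0 and 2, of 6 carriers of adenine nucleotides and phosphate and porins 0 and 2, and of 8 fusion and fission genes 2 and 3. Ppargc1a, a coactivator of mitochondrial genes, had 5.01, 5.19 and 6.31 in the in vitro libraries, 5.24, 10.86 and 10.85 in the in vivo libraries, 6.99, 7.27 and 6.26 in the primed vehicle libraries and 12.51, 12.26 and 10.97 in the non-primed libraries, and fell by 5.07 ± 1.26 (adjusted p = 0.00797). Its high values were those of the 5 melanocyte-marker-rich libraries.

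Between in vivo and primed vehicle libraries, 5 of 15 complex I assembly factors rose and 1 fell, 6 of 18 electron carrier and coenzyme Q genes rose and 2 fell, and 4 of 14 biogenesis regulators rose and none fell, against 17.9% of all tested genes that rose and 21.8% that fell. Their medians were 0.06, 0.14 and 0.24, against -0.05 for all tested genes. Other lists had more falls: of 48 mitochondrial ribosomal proteins 3 rose and 9 fell (median 0.07), and of 18 protein import genes 1 rose and 5 fell (median 0.03). Of 19 genes of the tricarboxylic acid cycle and pyruvate dehydrogenase 5 rose and 1 fell, of the assembly factors of complexes II and III 4 and 1 of 10, of complex IV 4 and 3 of 20 and of complex V 0 and 1 of 4. In the 6-library model the numbers that rose and fell were 5 and 1 for complex I assembly, 5 and 1 for the carriers and coenzyme Q genes, 1 and 0 for biogenesis, 2 and 4 for the ribosomal proteins, 0 and 3 for import, 1 and 0 for the tricarboxylic acid cycle and 0 and 1 for complex IV assembly. When in vivo library 1 was the only treated library, the first 3 lists had medians of -0.28, 0.10 and 0.07. Of 6 carriers of adenine nucleotides and phosphate and porins 1 rose and 0 fell, in the 12-library and in the 6-library model. That gene, Slc25a4, rose by 0.84 ± 0.11 (SE), with a limma adjusted p of 0.00158 and, in the 6-library model, 0.0121. Its value in in vivo library 1, 15.79, lay above its primed vehicle values of 14.97 to 15.10. In the 12-library model 2 of 10 genes of mitochondrial DNA and RNA processing rose and 1 fell, and of 8 fusion and fission genes 2 and 2. Coq8a, a member of the coenzyme Q list, rose by 2.22 ± 0.36 and Tfb1m, a methyltransferase of mitochondrial ribosomal RNA, by 1.69 ± 0.26, and both were called in the 6-library model (limma adjusted p = 0.0103 and 0.0141). Their values in in vivo library 1 were 9.60 and 9.34, above the primed vehicle values of 7.68 to 8.15 and 7.98 to 8.34. Between in vitro and primed vehicle libraries in the 12-library model, Coq8a rose by 1.67 ± 0.36 (SE; limma adjusted p = 0.0335), Coq9, another coenzyme Q synthesis protein, by 0.75 ± 0.15 and Slc25a4, which exchanges ADP and ATP across the inner membrane, by 0.66 ± 0.11 (adjusted p = 0.0154). Slc25a4 had 15.63, 15.78 and 15.59 in the in vitro libraries, 15.79, 15.91 and 15.86 in the in vivo libraries, 14.97, 15.10 and 14.97 in the primed vehicle libraries and 15.83, 15.82 and 15.93 in the non-primed libraries, with the primed vehicle libraries below all 9 others. The complex I assembly factor Ndufaf7 rose by 0.66 ± 0.15, the complex II assembly factor Sdhaf1 by 0.66 ± 0.14 and the fusion protein Mfn1 by 0.54 ± 0.13. Mgme1, a nuclease of mitochondrial DNA, fell by 0.84 ± 0.20 and the import subunit Timm17a by 0.58 ± 0.13. No gene of the complex IV and V assembly lists, the tricarboxylic acid cycle list or the biogenesis list was called in that model. It called 4.51% of all tested genes. The 6-library model called 30.3%, and genes of these lists were among them. In it Ogdh, of the tricarboxylic acid cycle list, rose by 0.77 ± 0.13 and Tfb1m by 1.00 ± 0.21 (SE; limma adjusted p = 0.00746 and 0.0132). The complex IV assembly factors Sco2 and Cox10 differed by -0.63 ± 0.16 and -0.60 ± 0.15 (SE; limma adjusted p = 0.0293 and 0.026).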

How the data were processed

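RNA sequencing values of 12 libraries in 4 groups of 3, grouped by the titles in the labels, were used. The deposited values are on a log2 scale, a regularized log (rlog) made by the authors for 55413 genes. The submitters' processing notes name DESeq2 1.24.0, Subread 1.6.1 (featureCounts), STAR 2.6.1c, cutadapt 1.18 and the genome build GRCm38, and a stranded kit was used per the labels' protocols. Tool settings, the annotation release, the strandedness used in counting and the blindness of the transformation were not given in the sources used here. Because the rlog shrinks differences of weakly expressed genes, those of the restricted isoforms may be understated. It is not scaled to gene length, so levels of different genes were not compared. Of the members, 23 overlap a tested gene on the opposite strand. Called members among them, besides those named above, include Ndufa13, Ndufb5, Ndufb11, Ndufs3, Uqcrb, Uqcrc2, Atp5a1 and Atp5f1. Another 2 overlaps lie on the same strand, Ndufa13 with Yjefn3 and Atp5b with Snord59a.

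Genes with a mean of at least 3 (16459) were fitted in limma 3.58.1 (R 4.3.3) with 1 mean per group over all 12 libraries and a variance trend, with two-sided p-values, Benjamini-Hochberg adjustment over all of them and a call at an adjusted p under 0.05. With 3 libraries a group, the smallest exact permutation p is 0.1, so no such test was run. The fits were tested on simulated data. Alternatives were a minimum mean of 5 or none, no variance trend, robust moderation, median-centred or quantile-normalized libraries, only the libraries compared, a replicate block, in vivo library 1 alone, the 7 libraries poor in melanocyte markers, and each library left out. Leaving out libraries from the 6-library model, and its replicate block, were chosen after seeing the data. Coordinates come from GENCODE M21 on GRCm38 and promoters from RefSeq on GRCm38.p6. Members and lists were chosen with earlier results of these data known. Values by library are given, by rule, for the called member with the largest difference per comparison and complex, for the main catalytic or structural subunits and for isoform pairs. Some of the subunits and isoforms are given only for the libraries of the comparison described, and Cox6a2 and Cox8b only as a mean. Of each list up to 2 called genes with the largest difference were eligible. Ndufb7, Ndufb10 in the priming comparison, Ndufa2, Ndufa13 and the members of the library splits were named after their values were seen. The result of 1 member is not reported here by itself, and it is left out of the map of members by library.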

Additional observations from a re-analysis of the deposited data

How the results depend on the processing

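Of the counts and the members named by rule, none that was called changed direction under the alternatives run. Medians near 0 did: for complex I in vivo against primed vehicle the median was -0.02 in the main model, 0.16 with median-centred and 0.04 with quantile-normalized libraries. Without a filter on low values 10 members were called in vivo against primed vehicle (main model 17), with median-centred libraries 31, in the model of only the libraries compared 6 and with in vivo library 1 alone 0. In vitro against primed vehicle the counts were 2 with median-centred and 2 with quantile-normalized libraries, 8 in the 6-library model, 8 in the model of the 7 libraries poor in melanocyte markers and 6 in the 6-library model with a replicate block (main model 1). Leaving out each library in turn gave 25 to 33 for primed against non-primed (main model 38), 3 to 45 in vivo against primed vehicle, 0 to 1 in vitro against primed vehicle (3 to 9 in the 6-library model, with 5 without in vitro library 1) and 0 to 9 in vivo against non-primed (main model 0). Counts of all tested genes called moved as well. In the same fits they were 6706 to 8044 for primed against non-primed (main model 8528) and 2435 to 9962 in vivo against primed vehicle (main model 6531). In vitro against primed vehicle they were 12 to 367 (main model 743). The cause was not tested. Quantile normalization moved the median of all genes for primed against non-primed to -0.24 and gave 6 higher and 41 lower members, with 9538 of all tested genes called.

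With the replicate number as a block, 34, 14, 1 and 0 members were called for primed against non-primed, in vivo against primed vehicle, in vitro against primed vehicle and in vivo against non-primed. Deviations of same-numbered libraries from their group means correlated at 0.069, -0.125 and -0.099 for primed against non-primed and at -0.268, 0.158 and -0.033 for in vitro against primed vehicle, so the numbers were not taken to pair the libraries. Among medians of all members and of the 5 complexes, 366 values stayed within the replicate spread and 24 moved. Among values of the members named by rule, 2067 kept their side of the threshold, 96 passed it and 87 no longer passed it. The other 25 were called in neither fit, but their difference changed sign and moved by at least its SE. The unknown depth limits what can be said of the lowest members.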
